A study of Homo sapiens with 4 samples.

Results

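The genes described here are 9 interferon-induced effectors, measured as RNA in RKO, an established line from a human colon carcinoma: the helicases and helicase-like genes DDX60, DDX60L, HELZ2 and ZNFX1, the sterile alpha motif genes SAMD9 and SAMD9L, the exonuclease gene ISG20, and the interacting pair IFI35 and NMI. They were chosen from earlier results of the same data, matched by the symbol in each row of the deposited tables, and make up 9 of the 13092 genes listed in either table. Because earlier values led to the choice, the values below are a description and carry no test. The study overexpressed HADH-S, described in the series title as a nuclear isoform of hydroxyacyl-CoA dehydrogenase, and asked which genes respond to it in colorectal cancer cells. The 2 groups are RKO cells overexpressing HADH-S and control RKO cells labelled WT, with 1 RNA library each. The sources used here do not give the vector, the time after its introduction or the use of clones or pools, and the chromatin immunoprecipitation and its input were not analysed here.

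Interferons bind receptors at the cell surface and activate a protein complex, with IRF9 as its DNA-binding subunit, that enters the nucleus and binds interferon-stimulated response elements in promoters. The genes switched on in this way include RNA sensors, enzymes that modify or degrade RNA, and factors that block viral translation. DDX60 and DDX60L are paired DExD/H-box helicase genes with antiviral roles. HELZ2 and ZNFX1 encode large helicases related to UPF1. SAMD9 and SAMD9L are neighbouring genes whose products restrict poxviruses and curb protein synthesis and growth. ISG20 encodes an exonuclease that degrades RNA, and IFI35 and NMI encode related proteins that bind each other.

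The promoter stretches of 7 of these genes are printed below to show which of them hold an interferon response element pattern searched for here. Of these, 6 carry a pattern described next, and HELZ2, the gene with the largest ratio, is printed as one without a full match. They come from RefSeq (GRCh38.p14), are written 5′ to 3′ on the strand of the gene, and cover the 170 bases before the annotated start site. Capitals mark 2 patterns searched on both strands: the response element core GAAANNGAAA, and the shorter AAACNGAAA, which overlaps the core and was picked after the letters were seen. The stretch of DDX60 lies at chr4:168318753-168318922 on the minus strand, that of DDX60L at chr4:168480493-168480662 (minus), that of SAMD9 at chr7:93117980-93118149 (minus), that of SAMD9L at chr7:93148386-93148555 (minus), that of ISG20 at chr15:88638846-88639015 (plus), that of HELZ2 at chr20:63574240-63574409 (minus) and that of NMI at chr2:151289669-151289838 (minus).
DDX60: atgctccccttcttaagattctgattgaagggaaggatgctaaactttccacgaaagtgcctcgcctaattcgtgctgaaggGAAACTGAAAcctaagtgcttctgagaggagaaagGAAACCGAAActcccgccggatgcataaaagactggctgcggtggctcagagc
DDX60L: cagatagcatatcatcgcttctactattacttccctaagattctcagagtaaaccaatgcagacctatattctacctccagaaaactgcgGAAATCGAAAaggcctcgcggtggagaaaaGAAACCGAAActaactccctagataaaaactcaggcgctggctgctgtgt
SAMD9: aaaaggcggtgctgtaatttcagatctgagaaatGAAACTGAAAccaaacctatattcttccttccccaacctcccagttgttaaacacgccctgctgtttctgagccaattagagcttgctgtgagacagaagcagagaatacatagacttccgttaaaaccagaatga
SAMD9L: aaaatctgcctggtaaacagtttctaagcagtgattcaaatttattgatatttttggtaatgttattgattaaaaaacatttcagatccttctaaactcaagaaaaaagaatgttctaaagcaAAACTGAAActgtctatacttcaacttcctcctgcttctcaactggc
ISG20: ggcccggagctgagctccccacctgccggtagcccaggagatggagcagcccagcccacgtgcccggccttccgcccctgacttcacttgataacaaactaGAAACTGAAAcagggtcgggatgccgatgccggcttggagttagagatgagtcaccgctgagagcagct
HELZ2: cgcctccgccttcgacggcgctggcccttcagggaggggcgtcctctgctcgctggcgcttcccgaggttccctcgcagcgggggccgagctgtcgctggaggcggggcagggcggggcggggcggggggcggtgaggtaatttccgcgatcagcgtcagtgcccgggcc
NMI: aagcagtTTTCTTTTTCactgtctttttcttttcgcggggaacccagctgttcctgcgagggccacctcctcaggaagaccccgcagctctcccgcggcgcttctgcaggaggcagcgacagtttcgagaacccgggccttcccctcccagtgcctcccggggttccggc

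The core was present in the 300-base window (250 bases before to 50 after the start site) of 5 of the 8 genes found in the promoter table. It was held by 4.38% of all 27305 genes in that table, and by 74.4% of the 39 other interferon-stimulated genes found there. DDX60 held a match from -88 to -79 and another from -53 to -44, counted from the start site, and DDX60L had its own pair from -80 to -71 and from -50 to -41. SAMD9 had a single match from -136 to -127 and ISG20 one from -69 to -60. The NMI match, from -163 to -154, lay on the opposite strand and reads TTTCTTTTTC on the gene strand. SAMD9L held the shorter pattern from -47 to -39. That pattern was held by 5 of the 8 genes, from whose letters it was picked. It was held by 2.60% of all genes in the table and by 53.8% of the 39 other interferon-stimulated genes. HELZ2, in both of its windows, and IFI35 held neither pattern in full, and ZNFX1 had no entry in the promoter table. Partial matches were present in both. HELZ2 held GAAACTGA from 7 to 14, past its first start site, letters that also lie within core matches of DDX60, SAMD9 and ISG20. IFI35 held GAAATGAAA from -16 to -8, where a single base parts GAAA from GAAA. The annotated start sites used for DDX60 and ISG20 lie inside the bounds of the RefSeq genes, so the windows do not cover annotated sequence further upstream. A match describes letters and does not show that a factor binds there.

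**Figure D1:**
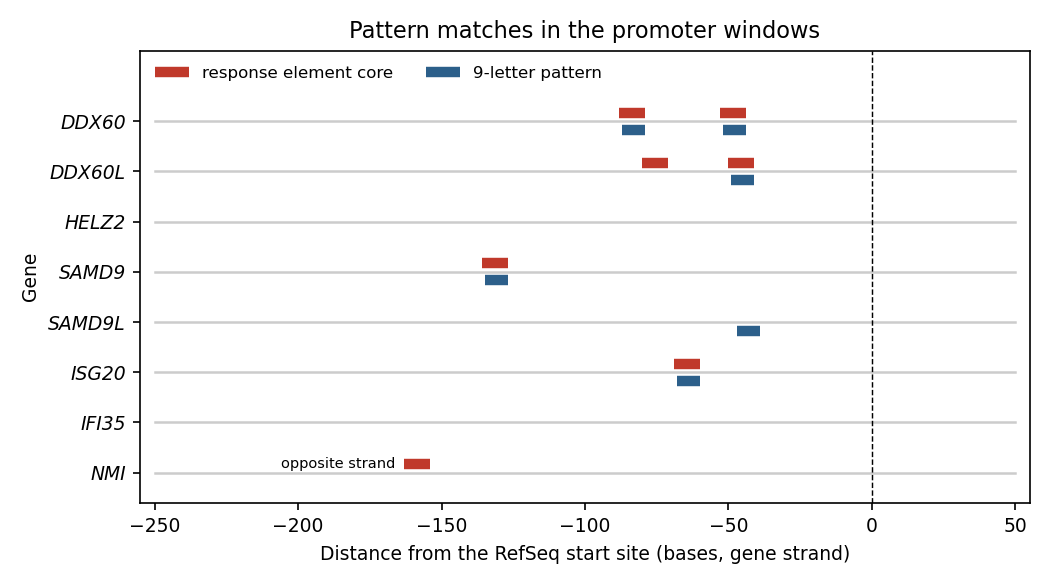
Matches to the response element core (red) and to the shorter pattern (blue) in the promoter windows of 8 genes, drawn by distance in bases from the RefSeq start site (dashed line). DDX60 and DDX60L each carry 2 core matches within 90 bases of the start site, while the HELZ2 and IFI35 lines carry none; the HELZ2 line stands for both of its windows.

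Libraries of 6963608 reads (HADH-S) and 6773421 reads (control) were recovered from the deposited RPKM values, that is, reads per kilobase of transcript scaled to library size. HADH was at 54.4 RPKM (651 reads) in HADH-S cells and 26.5 RPKM (309 reads) in control cells, in the direction of the label. This is 1 value per library for the whole gene, so RNA of the HADH-S isoform and other HADH RNA cannot be told apart. Of the 12 colon epithelium markers examined 5 were listed, among them CA2 at 14.3 RPKM in HADH-S cells and 11.1 RPKM in control cells, EPCAM at 9.57 RPKM in HADH-S cells and 8.20 RPKM in control cells, and CDX2 at 4.37 RPKM in HADH-S cells and 3.60 RPKM in control cells, while KRT20, CDH1, VIL1 and MUC2 were not. CA2 was the single marker of that list with an interval above 1 for the ratio of HADH-S over control (1.30, 95% interval 1.01 to 1.66). There are no replicates, so a difference below is one between 2 libraries. Each ratio of RPKM carries an exact conditional 95% interval from the reads, called the counting interval, which covers counting error only and takes reads as independent molecules. In RNA from a whole culture, more RNA per cell and more cells with the RNA cannot be told apart.

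With HADH-S, 8 of the 9 genes were higher and NMI was lower. The median over the 9 of the log2 ratio of RPKM + 1 in HADH-S cells over control cells, referred to as the log2 value, was 0.64, a 1.56-fold difference, against 0.01 over the 10331 genes that averaged at least 1 RPKM over the 2 libraries. All 9 passed that filter, and each was above 1 RPKM in both libraries. The counting interval lay above 1 for 8 of them, where it did for 13.8% of all 10331 genes, and below 1 for NMI, where it did for 11.6% of all genes. HELZ2 alone passed the rule of size used here, a log2 value of at least 1, which 0.300% of all genes reached, and 0 of the 9 lay at or below -1, where 0.0484% of all genes lay. Without a pseudocount, an RPKM ratio of at least 2 was found for HELZ2 and SAMD9L, 2 of the 9, and for 0.745% of all genes. At 1.5-fold on the same scale 5 of the 9 were counted, HELZ2, SAMD9L, SAMD9, IFI35 and DDX60, against 1.47% of all genes. A log2 value above 0 was found for 52.2% of all genes. These shares are given as background only, since the same contrast led to the choice of the 9.

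**Figure D2:**
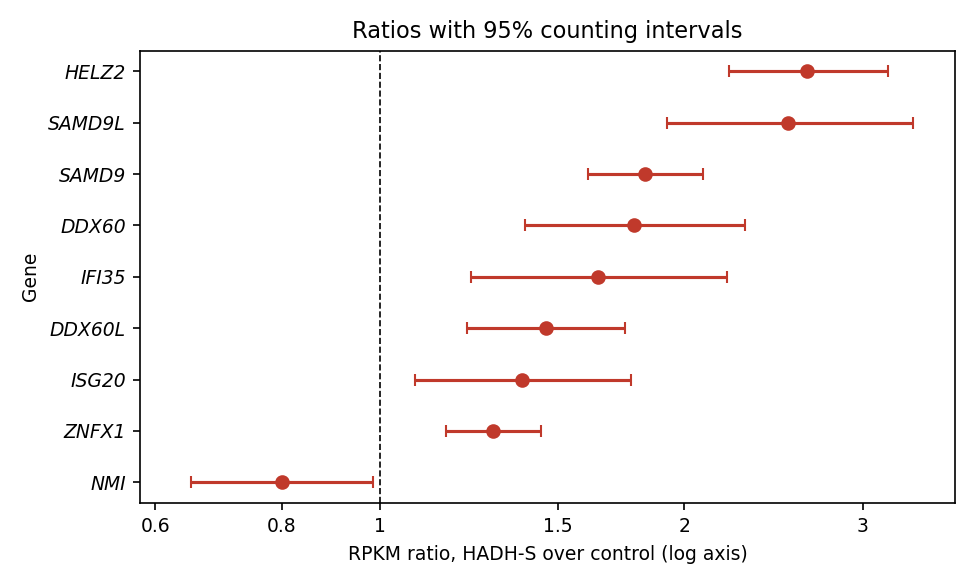
RPKM ratio of HADH-S over control for each gene (points, log axis) with its 95% counting interval (bars), from 1 library per condition. HELZ2 at 2.65 and SAMD9L at 2.53 are highest, and NMI at 0.801 is the only gene left of 1 (dashed line).

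Counting error is not the full difference between 2 libraries, so the ratios were also set beside those of all genes in the same broad class of depth. Among the 2628 genes with at least 200 and under 500 reads over both libraries, 95% of ratios lay between 0.740 and 1.496. SAMD9L, DDX60 and IFI35, 3 of the 5 members in that class, were above this range, and ISG20 and NMI were inside it. Among the 3611 genes with at least 500 and under 1500 reads the range was 0.799 to 1.31. HELZ2, SAMD9 and DDX60L were above it and ZNFX1, at 1.29, was inside. The differences of ISG20, ZNFX1 and NMI were thus within the range of 95% of genes in their class. The classes are wide, and some calls depend on their edges. DDX60L, with 515 reads and a ratio of 1.46, would lie inside the range of the class with 200 to under 500 reads. IFI35, with 207 reads and a ratio of 1.64, would lie inside that of genes with 50 to under 200 reads, which reached 1.80. ZNFX1, with 1373 reads, is near the deep end of its class.

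Among the helicase genes, HELZ2 differed most. HELZ2 (ENSG00000130589, chr20:63558086-63574239, minus strand), whose product was described as a nuclear receptor coactivator and is also an interferon-induced antiviral factor, was at 8.14 RPKM (457 reads) in HADH-S cells and 3.08 RPKM (168 reads) in control cells. The ratio was 2.65 (counting interval 2.21 to 3.18) and the log2 value 1.16, which ranked 17 from the top among the 10331 genes. It stood above DDX60L in HADH-S cells and below it in control cells. ZNFX1 (ENSG00000124201, chr20:49245900-49278057), a zinc finger helicase that senses viral RNA at mitochondria, was at 15.6 RPKM (784 reads) in HADH-S cells and 12.1 RPKM (589 reads) in control cells. This was the smallest ratio of the 8 higher genes, 1.29 (1.16 to 1.44). The HELZ2 ratio was 2.04 times the ZNFX1 ratio, with a counting interval of 1.65 to 2.53, so the ratios of this related pair differed by more than counting error.

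DDX60 (ENSG00000137628, chr4:168216294-168325979), reported to promote signalling by the RNA sensor RIG-I, was at 4.42 RPKM (185 reads) in HADH-S cells and 2.48 RPKM (101 reads) in control cells. Its ratio was 1.78 (1.39 to 2.29). DDX60L (ENSG00000181381, chr4:168356735-168480492), its paralog, reported to restrict hepatitis C virus, was at 6.54 RPKM (309 reads) in HADH-S cells and 4.49 RPKM (206 reads) in control cells, a ratio of 1.46 (1.22 to 1.75). The genes lie 30755 bases apart on the same strand, and their coding regions have 1712 and 1706 codons. The DDX60 ratio was 1.22 times that of DDX60L with an interval of 0.896 to 1.67, which includes 1. A difference between the ratios of these paralogs was therefore not detectable at this depth, and DDX60L had the higher level of the pair in both libraries. How reads in stretches the paralogs share were counted is not given in the sources used here.

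**Figure D3:**
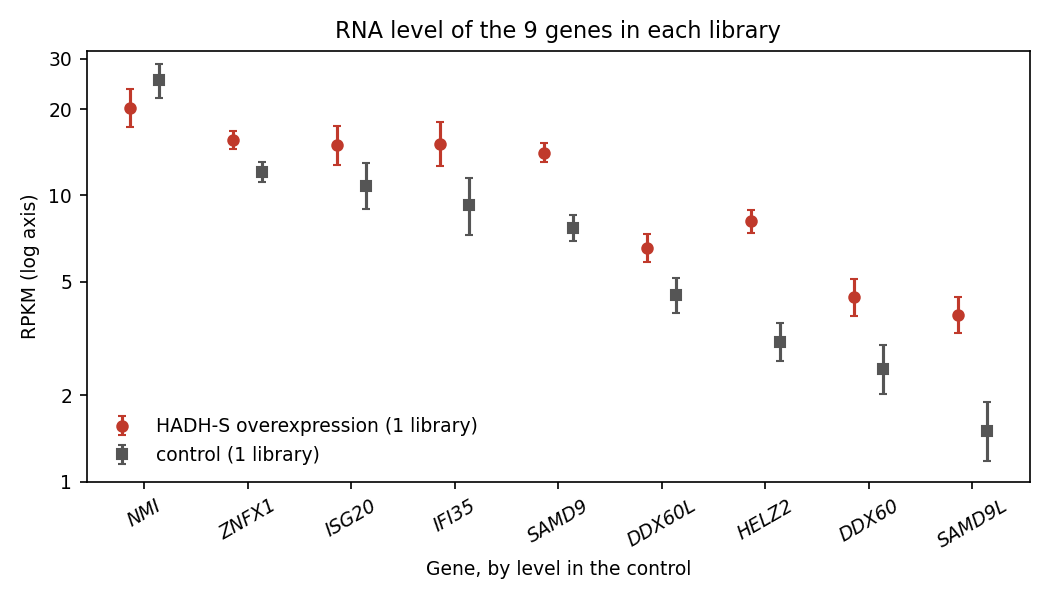
RPKM of each gene (log axis) in the HADH-S library (red circles) and the control library (grey squares), ordered by the control level, with 95% Poisson intervals for counting error. NMI is the highest gene in both libraries, at 20.2 RPKM in HADH-S cells and 25.2 RPKM in control cells, and SAMD9L the lowest, at 3.82 RPKM in HADH-S cells and 1.51 RPKM in control cells.

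SAMD9 and SAMD9L, which lie 12076 bases apart on chromosome 7, were both higher with HADH-S. SAMD9 (ENSG00000205413, chr7:93099518-93117979) was at 14.1 RPKM (668 reads) in HADH-S cells and 7.70 RPKM (355 reads) in control cells, and had a ratio of 1.83 (1.61 to 2.09). SAMD9L (ENSG00000177409, chr7:93130056-93148385) was at 3.82 RPKM (190 reads) in HADH-S cells and 1.51 RPKM (73 reads) in control cells, and had a ratio of 2.53 (1.92 to 3.36). SAMD9L thus had the lowest level of the 9 in control cells and the second highest ratio. The log2 value of SAMD9L was 0.94, just short of 1, although its RPKM ratio was above 2, because the added 1 weighs on a gene at this level. The SAMD9 ratio was 0.723 times that of SAMD9L, with a counting interval of 0.528 to 0.983. SAMD9 RNA was 3.69 times as abundant as SAMD9L RNA per length with HADH-S and 5.11 times in the control. As with the DDX60 pair, the sources used here do not say how reads shared by these paralogs were counted.

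ISG20 (ENSG00000172183, chr15:88635632-88656483, plus strand) was at 15.0 RPKM (165 reads) in HADH-S cells and 10.8 RPKM (116 reads) in control cells. The ratio of 1.38 had an interval of 1.08 to 1.77, with the lowest lower bound among the higher genes. Its coding region of 181 codons is the shortest of the 9.

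IFI35 and NMI, whose products form a complex and share a domain, differed in opposite directions. IFI35 (ENSG00000068079, chr17:43006784-43014456, plus strand) was at 15.2 RPKM (130 reads) in HADH-S cells and 9.23 RPKM (77 reads) in control cells, with a ratio of 1.64 (1.23 to 2.21). NMI (ENSG00000123609, chr2:151270470-151289668, minus strand) was at 20.2 RPKM (173 reads) in HADH-S cells and 25.2 RPKM (210 reads) in control cells, with a ratio of 0.801 (0.651 to 0.985). The IFI35 ratio was 2.05 times that of NMI, with a counting interval of 1.43 to 2.94. NMI RNA was 1.33 times as abundant as IFI35 RNA per length with HADH-S and 2.73 times in the control. The NMI difference itself was small: at 99% its interval ran from 0.611 to 1.05 and included 1.

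Per length, NMI had the highest level of the 9 in both libraries, above ZNFX1 by a factor of 1.29 with HADH-S (1.09 to 1.53) and of 2.09 in the control (1.78 to 2.45). With HADH-S, ZNFX1, IFI35, ISG20 and SAMD9 followed between 15.6 and 14.1 RPKM, and no neighbours among these differed beyond counting error. In the control, ZNFX1, ISG20, IFI35 and SAMD9 came next, between 12.1 and 7.70 RPKM, again with no neighbours separated. Only adjacent genes were compared, and the ends of this run were apart. In the control the Poisson intervals of ZNFX1 (11.1 to 13.1 RPKM) and SAMD9 (6.92 to 8.54 RPKM) did not overlap. The step from SAMD9 to the next gene was larger than counting error in both libraries, 1.73 with HADH-S (down to HELZ2) and 1.72 in the control (down to DDX60L). At the low end, DDX60 and SAMD9L were not separated with HADH-S (factor 1.16, interval 0.940 to 1.42), whereas in the control DDX60 was above SAMD9L by 1.64 (1.21 to 2.25).

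**Figure D4:**
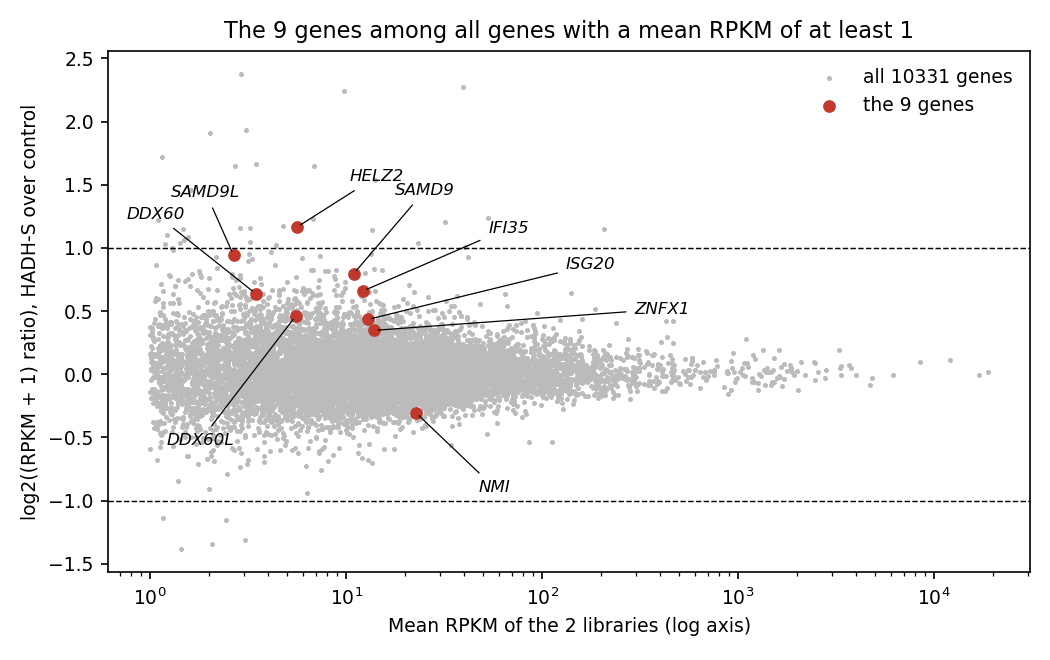
Log2 value (HADH-S over control) against mean RPKM of the 2 libraries (log axis) for the 10331 genes averaging at least 1 RPKM (grey) and the 9 genes (red, named). HELZ2 at 1.16 lies above the dashed size limit of 1, SAMD9L at 0.94 just under it, and NMI at -0.31 below 0.

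Other interferon-stimulated genes were higher with HADH-S too. Of 49 on a list kept apart from the 9, 39 averaged at least 1 RPKM and all 39 had a log2 value above 0, from 0.05 to 2.37 with a median of 0.65, so that NMI lay below each of them. Their counting intervals lay above 1 for 36, below 1 for 0 and included 1 for 3. Some of the 39, OAS1 among them, were under 1 RPKM in the control and passed the filter only through the HADH-S library. Such genes could enter only as higher, so the count of 39 above 0 was in part fixed by the filter. The median of 0.65 and the count of 36 intervals above 1 rest in part on the same genes. The largest log2 values on the list were those of OAS1, IFI6 and IFIT1. OAS1 makes the activator of RNase L, IFI6 is an interferon-induced membrane protein and IFIT1 binds viral RNA lacking cap methylation. OAS1 stood at 5.54 RPKM in HADH-S cells and 0.263 RPKM in control cells, from 65 reads in HADH-S cells and 3 in control cells. IFI6 had a ratio of 5.13 (3.98 to 6.70) and IFIT1 one of 6.08 (4.79 to 7.80), both above the ratios of the 9. Of 6 genes of the receptor and signal path, 3 had a counting interval above 1 and IFNAR1, a receptor chain, had one below 1 (ratio 0.901, interval 0.818 to 0.992). The 3 were IRF9 (ratio 3.19, interval 2.45 to 4.20), STAT2 (1.44, 1.19 to 1.74) and TYK2. TYK2, a kinase bound to the receptor, was at 17.1 RPKM in HADH-S cells and 13.05 RPKM in control cells (ratio 1.31). Of 12 interferon genes 10 were listed in neither table, and IFNB1 and IFNE had 2 and 4 reads with HADH-S and were not listed in the control table, where a count of 0 allows up to 3 reads.

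**Figure D5:**
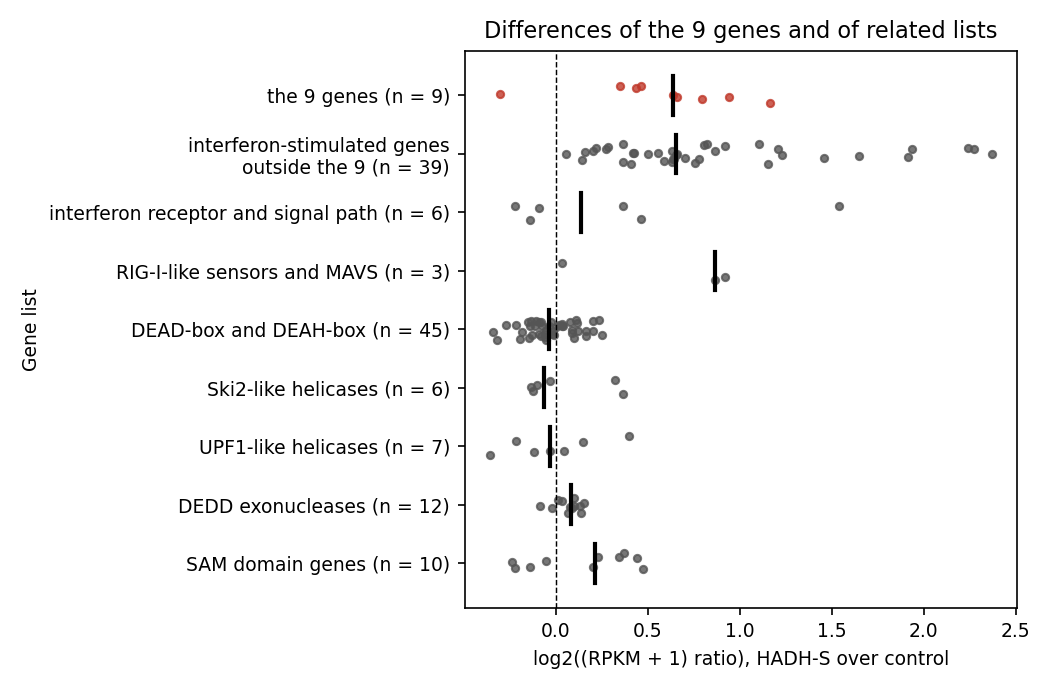
Log2 values (HADH-S over control) of single genes (points) with a mean RPKM of at least 1, by list, with list medians (black bars). The 9 genes (red) have a median of 0.64 and the other interferon-stimulated genes one of 0.65, while the lists of DEAD-box and DEAH-box, Ski2-like and UPF1-like helicases centre close to 0. Some of the other interferon-stimulated genes passed the filter only through the HADH-S library, which raises their median.

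Relatives of the 9 by sequence family, not known as a group for induction by interferon, centred closer to 0. The 45 other DEAD-box and DEAH-box helicase genes, which unwind RNA in splicing, ribosome assembly and translation, had a median log2 value of -0.04 and a range of -0.34 to 0.25, with 4 counting intervals above 1 and 12 below. Their largest differences were on the lower side, in DHX57 (ratio 0.773, interval 0.672 to 0.890), DHX35 (0.785, 0.654 to 0.942) and DHX32 (0.823, 0.729 to 0.928). Among 7 UPF1-like helicase genes the median was -0.03. HELZ, the close relative of HELZ2, was at 9.56 RPKM in HADH-S cells and 12.6 RPKM in control cells (ratio 0.761, interval 0.668 to 0.867), so that HELZ2 and HELZ lay on opposite sides of 1. UPF1, the helicase of nonsense-mediated decay, had a ratio of 1.33 (1.22 to 1.46) and the splicing helicase AQR one of 0.851 (0.770 to 0.939). The 6 Ski2-like helicase genes measured had a median log2 value of -0.07, with 2 counting intervals above 1 and 1 below. SKIC2, listed under its older symbol SKIV2L, had a ratio of 1.28 (1.08 to 1.52), HELQ one of 1.39 (1.003 to 1.94) and POLQ one of 0.900 (0.802 to 1.01). RIGI, the sensor whose signalling DDX60 was reported to promote, is listed under its older symbol DDX58. It was at 8.07 RPKM in HADH-S cells and 3.80 RPKM in control cells (ratio 2.13, interval 1.70 to 2.66). The related sensor IFIH1 had a ratio of 2.12 (1.58 to 2.87), and their shared adaptor MAVS one of 1.02 (0.923 to 1.14).

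The 12 other DEDD exonuclease genes measured, relatives of ISG20, had a median log2 value of 0.08 and a highest value of 0.15. ISG20L2 had a ratio of 1.10 (0.980 to 1.24), REXO5 one of 1.13 (0.864 to 1.49) and REXO4 one of 1.10 (1.01 to 1.18), the single interval of the list above 1. Of 10 other genes with a sterile alpha motif, 3 had an interval above 1 and 2 had one below, with a median of 0.21. SAMHD1, a dNTP hydrolase that restricts retroviruses, was at 19.3 RPKM in HADH-S cells and 13.96 RPKM in control cells (ratio 1.38, interval 1.23 to 1.55). SAMD1, a chromatin protein, had a ratio of 1.44 (1.13 to 1.82) and SAMD10 one of 1.46 (0.866 to 2.50).

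The genes next to the 9 on the chromosome had log2 values closer to 0. Among the nearest protein-coding neighbours outside the 9, 8 had a mean RPKM of at least 1, with log2 values from 0.03 to 0.23 and a median of 0.11. The counting interval lay above 1 for 3 of these 8, below 1 for 0 and included 1 for 5. Of all 10331 genes, 13.8% had an interval above 1 and 11.6% one below. VAT1, which lies 150 bases from IFI35, was at 80.7 RPKM in HADH-S cells and 71.0 RPKM in control cells (ratio 1.14, interval 1.05 to 1.22). DDX27, a nucleolar helicase gene 1826 bases from ZNFX1, had a ratio of 1.19 (1.02 to 1.37), close to the ZNFX1 ratio. AEN, another DEDD exonuclease gene, 3350 bases from ISG20, had one of 1.06 (0.952 to 1.17), and PALLD, 16559 bases from DDX60L, one of 1.07 (0.870 to 1.30). GMEB2, CDK6, RPL27 and RBM43 were the other neighbours above that level, ANXA10 and HEPACAM2 were under it, and FNDC11, ACAN and TNFAIP6 were not listed. The RefSeq genes overlapping the 9 were a snoRNA in DDX60 (LOC124900910) and one in DDX60L (LOC124900181), both not listed.

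By likeness of response over the 2 libraries, taken as the distance from the median log2 value of the 9 among protein-coding genes with at least 50 reads, the 5 nearest genes were PPDPF, H4C15, EME2, IFITM3 and PLEKHM1. IFITM3, which blocks fusion of viruses with cell membranes, is the one on the interferon list, at 171 RPKM in HADH-S cells and 109 RPKM in control cells (ratio 1.57, interval 1.39 to 1.76). PPDPF had a ratio of 1.57 (1.32 to 1.87), EME2, an endonuclease subunit, one of 2.03 (1.42 to 2.92), and PLEKHM1, an adaptor of lysosome fusion, one of 1.65 (1.38 to 1.98). H4C15 had 38 reads in HADH-S cells and 21 in control cells, and near-identical H4 copies make its count uncertain. With 2 libraries, likeness amounts to a similar ratio.

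Immune cells express many of the 9 genes strongly, so markers of other cell types were read in the same libraries. Of 14 leukocyte markers 10 were listed in neither library, among them PTPRC, CD3E, CD14 and TYROBP. The 4 listed ones summed to 708 RPKM in HADH-S cells and 646 RPKM in control cells, nearly all from CD68 (478 RPKM in HADH-S cells, 389 RPKM in control cells) and LCP1 (222 RPKM in HADH-S cells, 249 RPKM in control cells). CORO1A, also listed, was at 6.85 RPKM in HADH-S cells and 7.45 RPKM in control cells (ratio 0.919, with an interval that includes 1). Of 5 plasmacytoid dendritic cell markers IRF7 was listed, at 4.83 RPKM in HADH-S cells and 2.45 RPKM in control cells, and it is itself interferon-stimulated. Fibroblast markers summed to 0.115 RPKM in HADH-S cells and 0.0553 RPKM in control cells, and endothelial markers to 0 RPKM in HADH-S cells and 0.0579 RPKM in control cells. Mitochondrial transcripts took 5.41% of the HADH-S library and 5.32% of the control library. The part of CD68 or IRF7 in these results was not tested.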

How the data were processed

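RNA was measured in 1 library per condition. Per the file headers the authors deposited 1 RPKM value per gene and library. Per the submitters' processing notes, shared by all samples, fastp 0.23.2, SAMtools 1.9, MACS2 1.4.2, ChIPseeker and GRCh38 were used; the sources used here do not give the RNA aligner, counter or strand setting. RPKM times the transcript length in each row gave whole reads for 100% of values within 0.01 reads. A gene listed in 1 table was taken as having 0 reads in the other. Ratios carry exact conditional (Clopper-Pearson) 95% intervals; ratios of ratios carry exact conditional odds ratio intervals. The log2 value used a pseudocount of 1 and a filter on a mean RPKM of at least 1, and understates the change of low genes. With 1 library per condition no test between them is possible. Coordinates and promoters came from RefSeq (GRCh38.p14), matched by symbol, with 8 of the 9 genes found in the promoter table. The members and gene lists were chosen with earlier results of these data known. Some genes of the receptor and leukocyte lists and of the neighbours are not reported here and enter no count given for them. Named genes were the 9, HADH, the 3 largest absolute log2 values per list, chromosomal neighbours and the 5 genes of nearest log2 value; others (IFNAR1, the interferon genes and markers that were not listed) were chosen after their values were seen. Steps were tested on simulated data. Python 3.11.15, SciPy 1.17.1 and statsmodels 0.14.6 were used.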

Additional observations from a re-analysis of the deposited data

How the results depend on the processing

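No paired analysis was possible because there is 1 library per condition, and no replicate could be left out. The count of members at a log2 value of at least 1 was 1 as reported, 2 with a pseudocount of 0.1 or of 0.5 (HELZ2 and SAMD9L), 0 with a pseudocount of 5 and 5 at a fold of 1.5; it was 2 for an RPKM ratio of at least 2 without a pseudocount, an alternative added after the data were seen (0.745% of all genes). The median log2 value of the 9, 0.64 as reported, was 0.34 with a pseudocount of 5. By construction a larger pseudocount pulls low genes towards 0. Setting both libraries to equal RPKM totals, the median of all genes to 0 or the 75th percentiles equal, and removing the trend with transcript length left the count at 1. The 8 counting intervals above 1 were still 8 with both rescalings tried, at 99% and with at least 50 reads. Each of the 9 genes had at least 207 reads, so the limit of 50 reads could drop none of them. Both rescalings were too small to move these bounds much. The share of all genes with an interval above 1 at 99% is not given here. Of 81 alternatives for single members 75 stayed within the counting interval of the reported value, the other 6 were pseudocount changes, and 0 changed sign. A pseudocount cannot change the sign, and the rescalings were small (the DDX60 ratio went from 1.78 to 1.75 at equal RPKM totals). That 0 changed sign was thus largely fixed in advance. NMI ran from -0.36 to -0.26. Depth limits the comparison of DDX60 with DDX60L.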

Other observations

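The promoter windows of DDX60 and DDX60L share letters beyond the response element core. Their longest identical stretch on the gene strand is 15 bases, GTGGCTCAGAGCGCC, from -12 to 3 in DDX60 and from -2 to 13 in DDX60L, counted from each start site. Among the other 27 pairs of members with a window, the longest shared stretch had 6 to 12 bases, with a median of 8. The 12-base stretch, GAAACTGAAACC, is that of DDX60 and SAMD9 and contains the core. SAMD9 and SAMD9L share 3 stretches of 10 bases, their longest. CATTTCAGAT and ATTTCAGATC hold neither pattern. They lie apart in SAMD9 but overlap in SAMD9L, from -93 to -84 and from -92 to -83, so they are a single region there. AAACTGAAAC, from -135 to -126 in SAMD9 and from -47 to -38 in SAMD9L, holds the shorter pattern AAACNGAAA. For HELZ2 the first of its 2 windows was compared.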
